A study of Mus musculus with 2 samples.

Results

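Venous endothelial cells line the postcapillary venules and veins of the brain. The cells described here are 132 of the 9301 barcodes of 2 single-cell libraries, 51 from the library labelled IL34LacZ/LacZ and 81 from the library labelled IL34LacZ/+. They were selected on measured values. A barcode needed at least 1000 UMIs (unique molecular identifiers, each counting 1 captured RNA molecule), at least 500 genes and at most 15% mitochondrial UMIs. The endothelial genes Cldn5, Flt1, Abcb1a, Slco1a4, Cdh5 and Pecam1 had to make up at least 0.5% of its UMIs, with Ttr below 2% and haemoglobin below 5%. It had to hold fewer than 4 UMIs of the arterial genes Gkn3, Bmx, Sema3g, Vegfc and Fbln5. Last, the venous genes Slc38a5, Vwf, Adgrg6 and Nr2f2 together had to reach 3 UMIs. Vcam1, Icam1 and Il1r1 were kept out of this gate.

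Whole brains of adult mice were sorted for astrocytes and endothelium, and 1 library was made from mice homozygous for a LacZ allele of Il34 (IL34LacZ/LacZ) and 1 from heterozygous mice (IL34LacZ/+). The design text calls the heterozygous library wild type, although its genotype holds 1 LacZ allele too, so both libraries carry the allele and no library without it was compared. The labels name neither strain nor age in weeks, number of mice, pooling or sort markers. With 1 library per genotype no difference between genotypes could be tested, and every interval below is a 95% interval for counting error only. IL34LacZ/LacZ and IL34LacZ/+ stand for the libraries so labelled.

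Veins are the vessels at which leukocytes leave the blood, by binding adhesion molecules such as VCAM-1 and ICAM-1 on the endothelium. Interleukin-1, acting on its receptor IL-1R1 on brain vessels, switches on the transcription factor NF-kappaB and induces those adhesion molecules and Ptgs2, which encodes cyclooxygenase-2 and so starts prostaglandin synthesis. Capillary endothelium carries most of the nutrient transporters of the blood-brain barrier, and the change from capillary to vein along the vessel is gradual. Il34 encodes interleukin-34, a ligand of the receptor CSF1R on microglia.

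The venous cells were deeper than the other endothelial cells, as were the arterial-gated cells (medians of 6359 UMIs in IL34LacZ/LacZ and 7523.5 UMIs in IL34LacZ/+). The venous median was 6579 UMIs in IL34LacZ/LacZ and 6123 UMIs in IL34LacZ/+, against 4323.5 and 3951 UMIs in the other endothelial cells, meaning gated endothelial cells that passed neither the venous nor the arterial limit (222 and 396 cells). In all, the venous cells held 374362 UMIs in IL34LacZ/LacZ and 559063 UMIs in IL34LacZ/+. The libraries shared 8 barcodes, of which 0 were venous cells of IL34LacZ/LacZ and 1 was a venous cell of IL34LacZ/+. Scrublet marked 7 and 3 barcodes as doublets, 0 of them venous; with so few marked, doublets cannot be taken as removed. Il34 itself had 0 UMIs in the venous cells of both libraries, which allows up to 8.01 CPM (counts per 1000000 UMIs) in IL34LacZ/LacZ and 5.37 CPM in IL34LacZ/+ at 3 counts. In pericytes it stood at 518 CPM in the library labelled IL34LacZ/LacZ and 378 CPM in the library labelled IL34LacZ/+. A 3-prime tag outside the altered part of the gene says nothing about the allele, and the labels do not say where the insertion lies, so Il34 checked neither label.

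By the rule's gate the venous share of the endothelium did not differ between the libraries beyond counting error. Venous cells were 17% of the 300 gated endothelial cells of IL34LacZ/LacZ (exact Clopper-Pearson interval 12.9% to 21.7%) and 15.3% of the 529 of IL34LacZ/+ (12.3% to 18.7%). The difference was 1.69 points, with a Newcombe interval from -3.59 to 7.28. When each endothelial cell was thinned to 2000 UMIs before gating, the shares were 7.20% in IL34LacZ/LacZ and 6.47% in IL34LacZ/+, lower than the unthinned shares in both libraries. With Vwf left out of the gate the shares were 10.7% in IL34LacZ/LacZ and 5.67% in IL34LacZ/+. With Slc38a5 left out they were 10.7% and 10.96%. The difference in share thus depended on the gate genes used, and no interval was computed for these alternatives.

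The gate genes, whose levels the rule fixed and which are given as a description only, differed in how they were shared out. Slc38a5, an amino acid transporter of the SNAT family on the X chromosome (GRCm38 chrX:8271133-8280179, plus strand), was detected in 37 of 51 IL34LacZ/LacZ cells and 47 of 81 IL34LacZ/+ cells. Vwf, which encodes von Willebrand factor (chr6:125546774-125686679, plus strand), was detected in 36 cells of IL34LacZ/LacZ and 72 cells of IL34LacZ/+, and 1 cell of IL34LacZ/+ held 120 of its 424 UMIs. Adgrg6, an adhesion G protein-coupled receptor (chr10:14402583-14545659, minus strand), was found in 10 and 9 cells. Nr2f2, the transcription factor COUP-TFII that sets venous identity (chr7:70351944-70366735, minus strand), was found in 19 and 27 cells. Cells with Slc38a5 but no Vwf numbered 14 in IL34LacZ/LacZ and 8 in IL34LacZ/+, and cells with Vwf but no Slc38a5 numbered 13 and 33. Both genes were present in 23 and 39 cells, and all 4 gate genes in 6 and 2 cells.

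Many members stood close to the limit. Exactly 3 gate UMIs were held by 14 IL34LacZ/LacZ cells and 30 IL34LacZ/+ cells, and 27 and 45 further cells stood just outside with 2. Just inside the limit Il1r1 was at 97.6 CPM in IL34LacZ/LacZ and 119.5 CPM in IL34LacZ/+, and just outside it at 111 and 63.3 CPM. At the other end, 15 cells of IL34LacZ/LacZ (29.4%, 17.5% to 43.8%) and 12 cells of IL34LacZ/+ (14.8%, 7.90% to 24.4%) held 10 or more gate UMIs. That difference of 14.6 points had an interval from -0.732 to 30.6 points.

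Genes that the gate did not use were checked for a venous pattern by comparing venous with other endothelial cells inside each library. Of 9549 genes with enough UMIs, 291 (3.05%) were over 1.5-fold higher in venous cells in both libraries and 462 (4.84%) were over 1.5-fold lower in both. Of a list of 22 measured genes known from veins, 15 were higher in both libraries and 0 were lower. Of 19 capillary genes 0 were higher and 3 lower, and of 20 arterial genes 1 was higher, namely Eln, which encodes elastin, and 5 were lower. Of 7 genes of fenestrated endothelium 0 were higher and 5 lower, and Plvap, the diaphragm protein of fenestrae, had 0 UMIs in the venous cells of both libraries, which allows up to 8.01 CPM in IL34LacZ/LacZ and 5.37 CPM in IL34LacZ/+ at 3 counts. All 12 general endothelial markers were detected in the venous cells of both libraries, and leukocyte markers summed to 0 UMIs in IL34LacZ/LacZ and 1 UMI in IL34LacZ/+. The 9 perivascular macrophage markers summed to 69.5 CPM in IL34LacZ/LacZ (2 detected) and 89.4 CPM in IL34LacZ/+ (1 detected), against 80.9 and 74.4 CPM in the other endothelial cells, and the defining genes Mrc1 and Cd163 were at 0 in the venous cells of both. Summed over all venous cells, the venous list outside the gate thus went with the label, as a description only. That list was drawn up with earlier results of these data in view. The sums do not hold for every member. Cells with exactly 3 gate UMIs had Il1r1 at 97.6 and 119.5 CPM, against 922 and 311 CPM over all venous cells. Choroid plexus markers, a sign of free RNA, summed to 1146 and 1383 CPM in venous cells and to 1200 and 1651 CPM in the other endothelial cells.

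Il1r1, the signalling receptor for interleukin-1, marked the venous cells in both libraries. Its level was 922 CPM in venous and 80.9 CPM in other endothelial cells of IL34LacZ/LacZ, a log2 ratio of 3.51 (3.17 to 3.87). In IL34LacZ/+ it was 311 CPM in venous and 30.3 CPM in other endothelial cells, a log2 ratio of 3.36 (2.92 to 3.83).

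Among the 15 genes of highest ratio, judged by the lower of the 2 libraries, were Samd5, Il1r1, Ptgs2, Nckap5, Vcam1, Myof, Ppfia2, Wnt5a, Lcp1, Ntn1, Icam1, Cadps2, Pknox2 and Sdk1. They include secreted guidance factors: Ntn1 (netrin-1) had log2 ratios of 2.09 and 2.78, and Wnt5a, a ligand of the non-canonical Wnt pathway, had 2.22 and 2.60. Lcp1, an actin-bundling protein otherwise typical of leukocytes, had 3.63 and 2.20. Samd5 rested on few cells, 7 in IL34LacZ/LacZ and 3 in IL34LacZ/+, with 23 of the 32 UMIs of IL34LacZ/+ in 1 cell. With both libraries summed, Il1r1, Ptgs2, Vcam1, Icam1, Myof and Sdk1 stood higher in venous cells than in any compared class outside the endothelium. For Vcam1 and Icam1 this did not hold in IL34LacZ/+ alone. There Vcam1 (48.3 CPM) lay below choroid plexus epithelium (157 CPM over both libraries) and Icam1 (57.2 CPM) below microglia (76.9 CPM over both). Samd5, Nckap5, Ppfia2, Wnt5a, Lcp1, Ntn1, Cadps2 and Pknox2 stood higher in a class outside the endothelium. Ntn1 was at 632 CPM in pericytes against 122 CPM in venous cells, and Wnt5a at 152 CPM in fibroblasts against 80.3 CPM. At the low end stood Igfbp3, an insulin-like growth factor binding protein, with 1 and 2 UMIs in venous cells against 74 and 102 in the other endothelial cells. Hey1, a Notch target of arteries, had 1 and 3 UMIs against 17 and 37. Of the others among the 10 lowest, Mfap1b, Slc26a10, Brd8dc, Alox12, Htr2a and Usp43 had at most 6 UMIs per library in venous cells, and Plpp1 had 32 and 19.

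**Figure D1:**
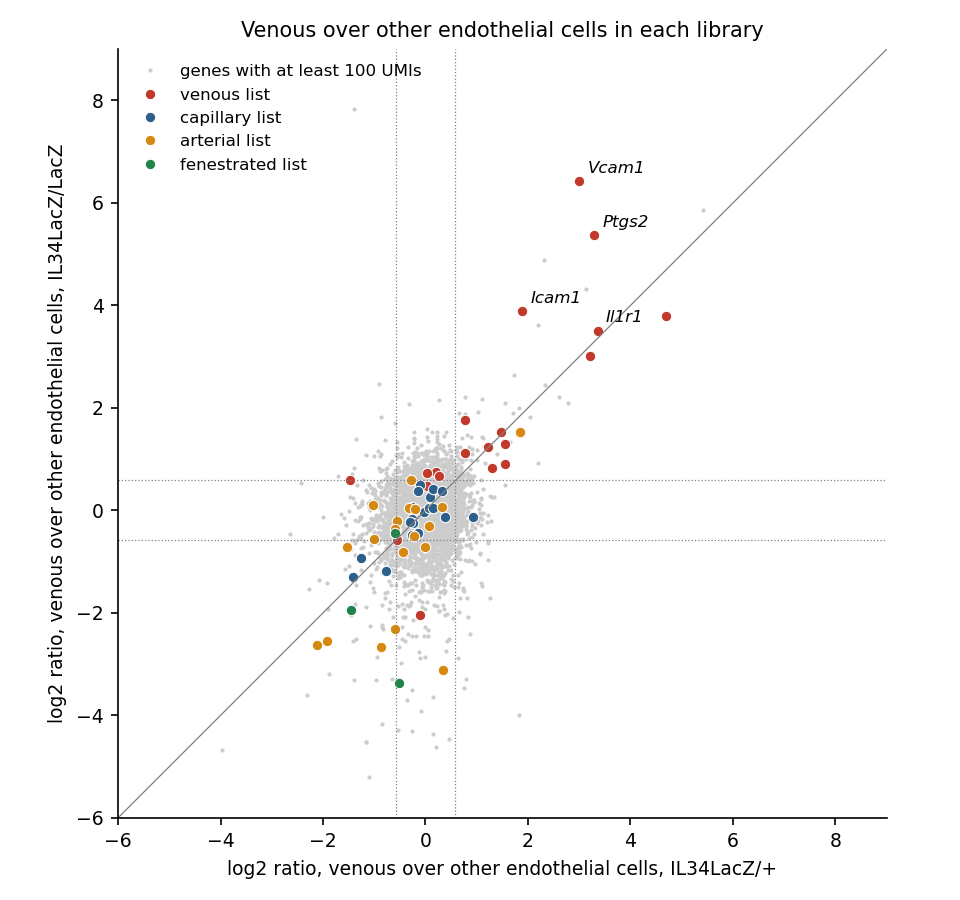
Log2 ratio of venous over other endothelial cells in IL34LacZ/LacZ (y) and IL34LacZ/+ (x); grey points are 5780 genes with at least 100 UMIs, coloured points list members with at least 30, gate genes and genes at 0 in a class are not drawn, and dotted lines mark 1.5-fold. On y and x, Il1r1 (3.51 and 3.36) lies near the diagonal, while Vcam1 (6.42 and 2.99), Ptgs2 (5.37 and 3.28) and Icam1 (3.89 and 1.89) lie above it.

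Il1r1 was higher in cells with more gate UMIs. In cells with no gate UMI Il1r1 stood at 68.2 CPM in IL34LacZ/LacZ and 22.6 CPM in IL34LacZ/+. In cells with 5 to 9 gate UMIs it was 536 and 261 CPM, and in cells with 10 or more it was 2198 and 790 CPM. Slco1c1 and Tfrc, transport genes of the barrier, were lower at the top step in both libraries. Slco1c1, the thyroxine transporter, was at 1644 CPM in the IL34LacZ/LacZ cells and 1394 CPM in the IL34LacZ/+ cells with 10 or more gate UMIs, against 2820 and 3142 CPM in those with none. Tfrc, the transferrin receptor, was at 377 and 561 CPM against 769 and 1095 CPM. In cells with exactly 3 gate UMIs Tfrc stood at 1149 and 1097 CPM and Slco1c1 at 3014 and 2708 CPM. Slc16a1, the lactate transporter MCT1, was lower at the top step in IL34LacZ/LacZ (112 CPM, against 231 CPM in cells with no gate UMI) but not in IL34LacZ/+ (391 CPM, against 378 CPM). The gate therefore spans cells with Slco1c1 and Tfrc near the level of the other endothelial cells and cells with lower levels.

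Vcam1 (chr3:116109949-116129688, minus strand) had a higher level in IL34LacZ/LacZ, most of it from 1 cell. Earlier results of these data had already shown Vcam1, Icam1 and Il1r1 higher in IL34LacZ/LacZ endothelium, and their levels are a description. Per cell, Vcam1 had a lowest value of 0, a median of 0 and a highest value of 134 UMIs in IL34LacZ/LacZ, against 0, 0 and 8 UMIs in IL34LacZ/+. It was detected in 13 of 51 cells (25.5%, 14.3% to 39.6%) and 10 of 81 cells (12.3%, 6.08% to 21.5%), so the distributions overlapped and most cells of both libraries had none. Summed, that gave 177 UMIs or 473 CPM (406 to 548) in IL34LacZ/LacZ and 27 UMIs or 48.3 CPM (31.8 to 70.3) in IL34LacZ/+, a log2 ratio of 3.29 (2.70 to 3.93). A single cell of IL34LacZ/LacZ, with 9000 UMIs and 62 gate UMIs, held 134 of the 177. Without the cell with most Vcam1 in each library the levels were 118 and 34.7 CPM and the log2 ratio was 1.76 (0.95 to 2.62). Thinned to 2000 UMIs per cell the log2 ratio was 2.04 for Vcam1 (0.99 to 3.198) and 2.70 for Icam1 (1.37 to 4.28), with overlapping intervals.

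The same cell also carried 36 UMIs of Icam1, 25 of Ptgs2 and 10 of Il1r1, and its largest share of markers of another class was 0.189% for fibroblasts. All 13 IL34LacZ/LacZ cells with Vcam1 also had Il1r1, as did 8 of the 10 IL34LacZ/+ cells. In the other endothelial cells Vcam1 was at 5.51 and 6.06 CPM (6 and 11 UMIs), a log2 ratio of -0.14 with a wide interval (-1.86 to 1.42). The log2 ratio between libraries was therefore 3.43 higher (1.76 to 5.26) in venous than in other endothelial cells, and 1.17 higher after thinning. That interval counts UMIs as independent, although 134 of the 177 venous UMIs of IL34LacZ/LacZ lay in 1 cell. Oligodendrocytes, which should lack these genes, had a Vcam1 UMI in 2.63% and 1.61% of cells at median depths of 16530.5 and 13759 UMIs. Thinned to 2000 UMIs, 10% of venous cells of IL34LacZ/LacZ and 7.41% of those of IL34LacZ/+ kept a Vcam1 UMI, against 0% of oligodendrocytes in both libraries (exact upper bounds 1.61% and 1.51%). Among the classes outside the endothelium Vcam1 was highest in choroid plexus epithelium (157 CPM over both libraries). Astrocytes, which were part of the sort, held 133 and 108 CPM of Vcam1, while astrocyte markers in venous cells summed to 152 CPM in IL34LacZ/LacZ and 367 CPM in IL34LacZ/+.

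Icam1 (chr9:21015985-21028817, plus strand) was found in 13 of 51 IL34LacZ/LacZ cells and 17 of 81 IL34LacZ/+ cells (25.5% and 20.99%), with highest values of 36 and 6 UMIs and medians of 0. The sums were 92 UMIs or 246 CPM (198 to 301) in IL34LacZ/LacZ and 32 UMIs or 57.2 CPM (39.2 to 80.8) in IL34LacZ/+, a log2 ratio of 2.10 (1.51 to 2.73). In IL34LacZ/LacZ 2 cells with 36 and 29 UMIs held most of it. Without the highest cell of each library the log2 ratio was 1.70, which still kept the cell with 29 UMIs. No ratio without both cells was computed. Both cells had Adgrg6. Among venous cells without Adgrg6, Icam1 was at 78.2 CPM (49.6 to 117) in IL34LacZ/LacZ and 50.9 CPM (32.6 to 75.7) in IL34LacZ/+, with overlapping intervals. In the other endothelial cells Icam1 was at 16.5 and 15.4 CPM, so the log2 ratio was 2.001 higher (0.92 to 3.13) in venous cells. That interval counts UMIs as independent, although 2 cells held 36 and 29 of the 92 venous UMIs of IL34LacZ/LacZ. Oligodendrocytes had an Icam1 UMI in 0.439% and 0% of cells, where 0 of 249 has an exact upper bound of 1.47%.

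Il1r1 (chr1:40225080-40317257, plus strand) was the most widely detected of the 3. It had a median of 2 and a highest value of 45 UMIs in IL34LacZ/LacZ cells, against a median of 0 and a highest value of 29 in IL34LacZ/+ cells. It was present in 27 of 51 cells (52.9%, 38.5% to 67.1%) and 37 of 81 cells (45.7%, 34.6% to 57.1%), and after thinning to 2000 UMIs in 42% and 27.2% of cells. The log2 ratio was 1.57 (1.30 to 1.84), from 345 and 174 UMIs, and it was 1.62 without the highest cell of each library. Unlike Vcam1 and Icam1, Il1r1 had much the same ratio in the other endothelial cells, 1.42 (0.91 to 1.93), and the difference between cell classes of 0.15 had an interval from -0.43 to 0.72. Oligodendrocytes had an Il1r1 UMI in 0.439% and 0.803% of cells.

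**Figure D2:**
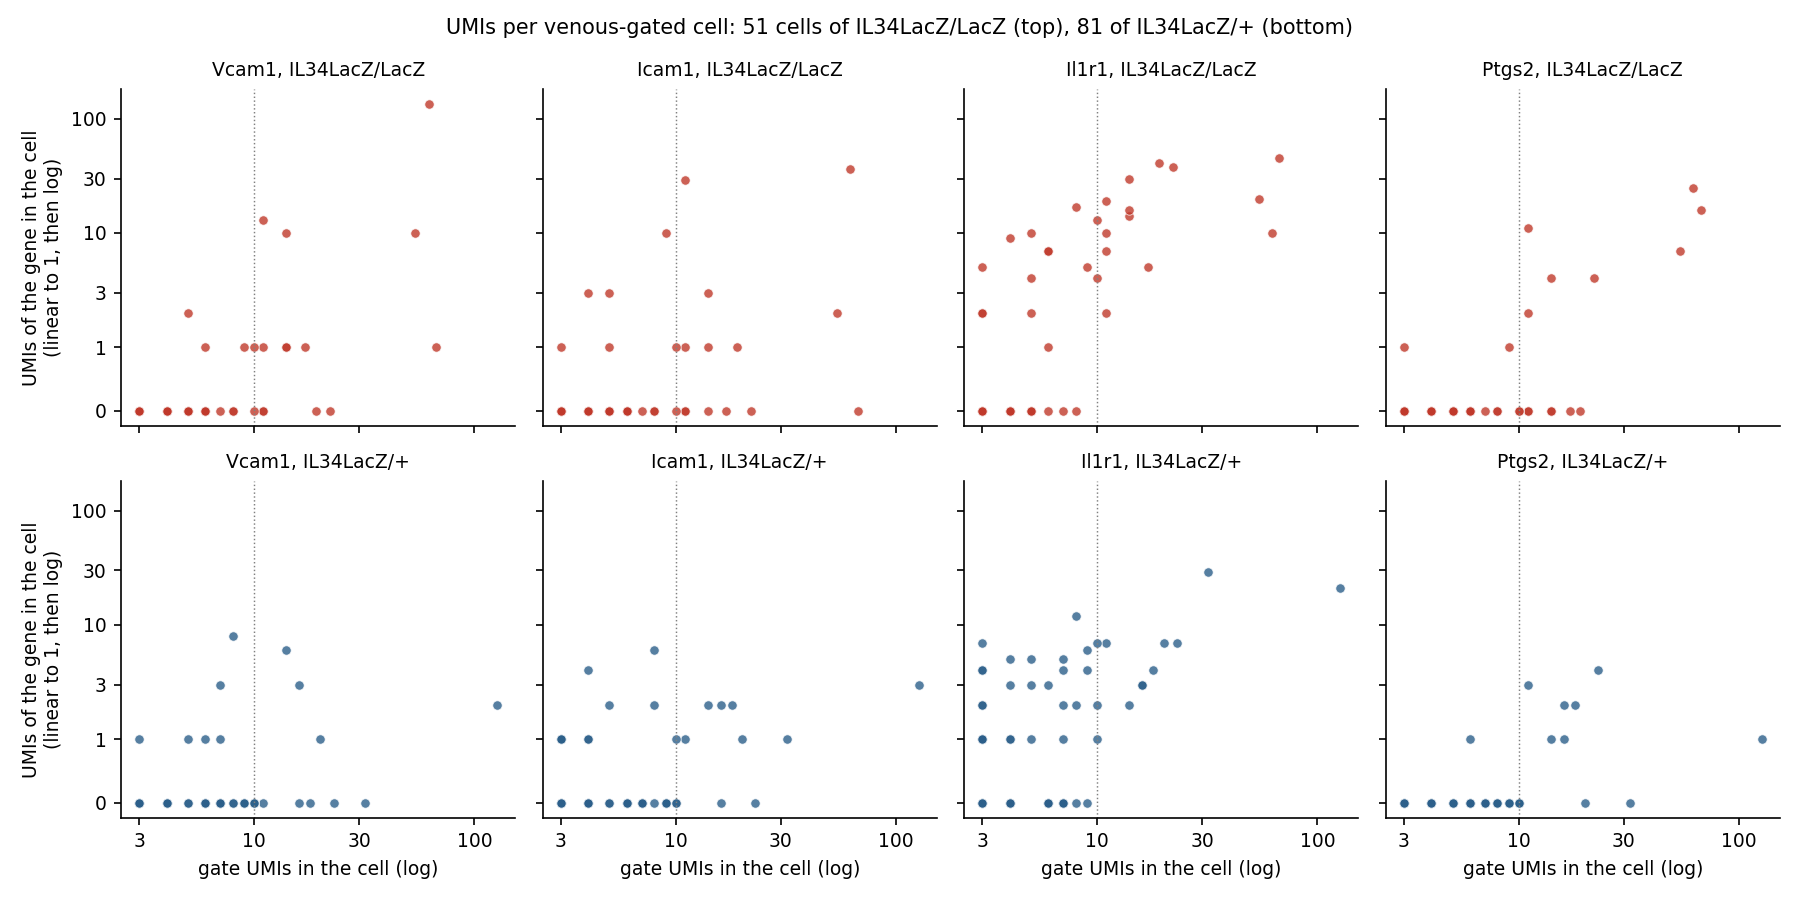
UMIs of Vcam1, Icam1, Il1r1 and Ptgs2 (y, linear to 1 and then log) against gate UMIs (x, log) in each venous cell, IL34LacZ/LacZ above and IL34LacZ/+ below; points at the same value overlap and the dotted line marks 10 gate UMIs. The highest Vcam1 value, 134 UMIs, lies at 62 gate UMIs in IL34LacZ/LacZ, while Il1r1 is spread over 27 and 37 cells.

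In IL34LacZ/LacZ the cells with 10 or more gate UMIs carried most UMIs of the 4 inflammatory genes. They held 173 of 177 Vcam1 UMIs, 74 of 92 Icam1 UMIs, 274 of 345 Il1r1 UMIs and 69 of 71 Ptgs2 UMIs, in 33.3% of all UMIs of the venous cells. In IL34LacZ/+ they held 12 of 27, 13 of 32, 93 of 174 and 14 of 15, in 21.1% of all UMIs, so less of Vcam1 and Icam1 lay inside that step than outside it. Within that step Vcam1 stood at 1388 CPM in IL34LacZ/LacZ and 102 CPM in IL34LacZ/+, and Icam1 at 594 and 111 CPM. In that step of IL34LacZ/LacZ, however, 1 cell held 134 of the 173 Vcam1 UMIs, and 2 cells held 36 and 29 of the 74 Icam1 UMIs. The Vcam1 and Icam1 difference among the cells with most gate UMIs thus came largely from these cells. The levels of that step were not recomputed without them.

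Vcam1 and Il1r1 also differed between cells split by gate gene. The 10 IL34LacZ/LacZ cells with Adgrg6 held 162 of 177 Vcam1 UMIs, and the 9 IL34LacZ/+ cells with Adgrg6 held 11 of 27. Of the 162 UMIs, 134 lay in 1 cell. Cells with Slc38a5 but no Vwf had 0 Vcam1 UMIs in IL34LacZ/LacZ and 1 in IL34LacZ/+, and their Il1r1 was 55.7 and 85.8 CPM (7 and 4 UMIs). Il1r1 in cells with both Slc38a5 and Vwf was 1698 and 358 CPM. Ackr1, the atypical chemokine receptor of venules, was named after its values were seen: 14 UMIs in 3 cells of IL34LacZ/LacZ and 3 UMIs in 1 cell of IL34LacZ/+, with 0 UMIs in the other endothelial cells.

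A further 18 IL34LacZ/LacZ cells and 19 IL34LacZ/+ cells reached 3 venous UMIs but also 4 arterial ones, and the rule left them out. Their Il1r1 was at 1002 and 834 CPM and their Vcam1 at 386 and 182 CPM. In IL34LacZ/+ both levels were above those of the gated venous cells, while in IL34LacZ/LacZ Vcam1 was below. With no limit on arterial UMIs, an alternative added after seeing the data, the log2 ratio of Vcam1 was 2.42 and that of Il1r1 1.08.

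**Figure D3:**
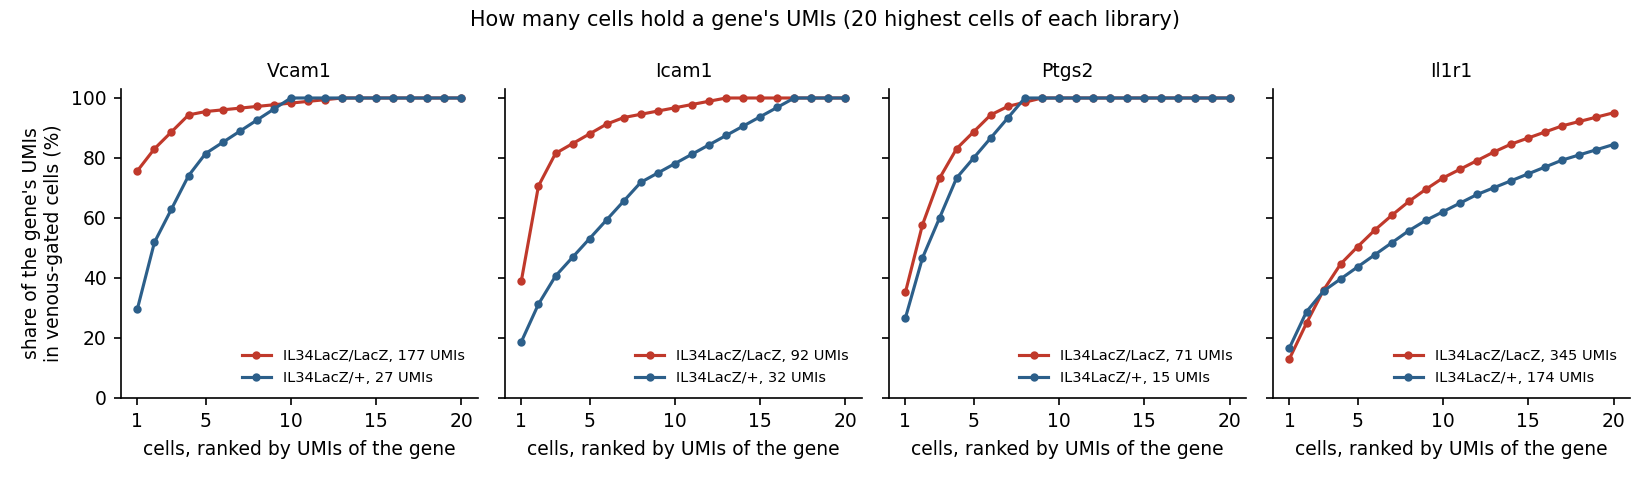
Cumulative share of each gene's UMIs (y, percent) over venous cells ranked by UMIs of that gene (x, the 20 highest cells), with IL34LacZ/LacZ in red and IL34LacZ/+ in blue. The first cell holds 75.7% of Vcam1 UMIs in IL34LacZ/LacZ and 29.6% in IL34LacZ/+, and 13.04% and 16.7% of Il1r1 UMIs.

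Over all genes, 5118 had at least 30 UMIs in the venous cells and were compared between the libraries. Of these 460 (8.99%) were over 1.5-fold higher in IL34LacZ/LacZ and 717 (14%) over 1.5-fold lower, and the median log2 ratio was -0.01. Counts of list members between the libraries below are to be read against these shares. Of the 717 lower genes 172 were over 10 times more abundant in a non-endothelial class, as were 8 of the 460 higher ones. Neuron markers summed to 45.4 CPM in venous cells of IL34LacZ/LacZ and 562 CPM in those of IL34LacZ/+, and 1 cell of IL34LacZ/+ reached 1% neuron markers. Most of the 314 UMIs behind the IL34LacZ/+ sum lay in that cell, where neuron markers were 1.08% of 24957 UMIs. Ribosomal protein genes took a median of 0.504% of UMIs per cell in IL34LacZ/LacZ and 0.939% in IL34LacZ/+, and 4 of 51 against 20 of 81 cells passed 1.5%. The part of either in the lower genes was not tested, apart from the values without ribosome-rich cells below.

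Of 16 measured venous genes outside the gate (33 on the list), 5 were higher in IL34LacZ/LacZ and 1 lower, with a median log2 ratio of 0.34. The list was drawn up with earlier results in view and is not independent evidence of its direction. The 5 were Vcam1, Ptgs2, Icam1, Il1r1 and Il6st, the gp130 chain shared by receptors of the interleukin-6 family. Il6st was at 307 CPM in IL34LacZ/LacZ and 184 CPM in IL34LacZ/+ (log2 ratio 0.74, 0.34 to 1.14), and without the highest cell of each library the ratio was 0.45, under 1.5-fold. The lower one was Tmsb10, an actin-binding peptide, at 176 and 324 CPM, and it stood at a log2 ratio of 0.013 once cells over 1.5% ribosomal UMIs were left out. Other venous genes stayed closer: Nrp2, a semaphorin and VEGF-C co-receptor, had 318 and 243 CPM, and Ctsc, cathepsin C, 152 CPM in both.

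Ptgs2 (chr1:150100031-150108227, plus strand) was found in few cells. It had 71 UMIs in 9 cells of IL34LacZ/LacZ and 15 UMIs in 8 cells of IL34LacZ/+, or 190 CPM (148 to 239) and 26.8 CPM (15.02 to 44.3), a log2 ratio of 2.82 (2.004 to 3.73). Without the highest cell of each library it was 2.66, and in the other endothelial cells, at 5 UMIs in each library, 0.74 (-1.38 to 2.86). Pla2g4a, the cytosolic phospholipase that frees arachidonic acid for cyclooxygenases, was at 414 and 177 CPM (1.23, 0.85 to 1.60), and its ratio in the other endothelial cells was 1.03. Of the 5 measured genes of prostaglandin synthesis (14 on the list) 3 were higher and 1, Ptgds, was lower, with a median of 0.64.

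Of 14 measured genes of interleukin-1 and NF-kappaB signalling (24 on the list) 3 were higher and 0 lower, with a median of 0.23. Thinned to 2000 UMIs 3 were higher and 4 lower (median 0.11), and by mean CPM per cell 3 were higher and 2 lower. Unthinned, the 3 were Il1r1, Nfkbiz and Csf1, of which Nfkbiz, an NF-kappaB cofactor, was under 1.5-fold at 0.39 without the highest cell of each library. Csf1, which shares the receptor CSF1R with interleukin-34, had 39 UMIs or 104 CPM in IL34LacZ/LacZ and 27 UMIs or 48.3 CPM in IL34LacZ/+ (log2 ratio 1.11, 0.36 to 1.87), and 0.46 in the other endothelial cells. The receptor and kinase genes of the pathway stayed near even: Il1rap, the partner chain of IL-1R1, was at 0.32, Irak1 at 0.08, and the NF-kappaB subunits Nfkb1 and Rela at 0.15 and 0.05. Nfkbia, the inhibitor IkappaB-alpha and itself a target of NF-kappaB, was at 0.42 (0.01 to 0.82).

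Adhesion molecules and chemokines went both ways, with 4 of 12 measured genes (22 on the list) higher and 4 lower and a median of -0.17. Beside Vcam1 and Icam1 the higher ones were Cd99l2 and Cxcl10, and all but 1 of the 36 UMIs of Cxcl10, an interferon-induced chemokine, came from 1 cell of IL34LacZ/LacZ. The lower ones were Icam2, the constitutive ligand of leukocyte integrins, at 82.8 and 138 CPM; Alcam at 134 and 301 CPM; Cxcl12 at 804 and 1286 CPM; and Cx3cl1 at 24.0 and 53.7 CPM. Alcam was as much lower in the other endothelial cells (-1.12, against -1.17 in venous cells). Pecam1, the junctional adhesion molecule CD31 and a gate gene of the endothelium, was at 719 and 807 CPM.

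**Figure D4:**
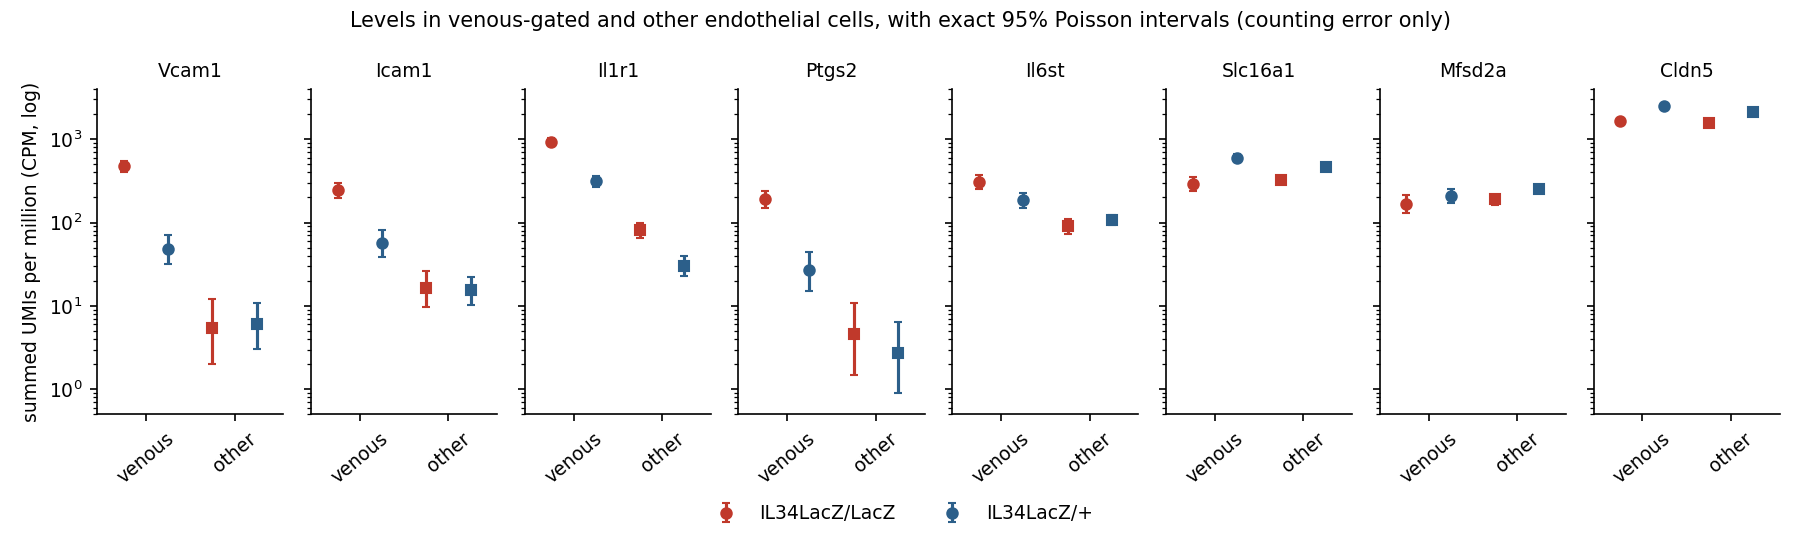
Levels (CPM, log axis) of 8 genes in venous (circles) and other endothelial cells (squares), IL34LacZ/LacZ in red and IL34LacZ/+ in blue, with exact Poisson intervals. Vcam1 stands at 473 and 48.3 CPM in venous cells and at 5.51 and 6.06 CPM in the others, while Il1r1 is higher in IL34LacZ/LacZ in both classes.

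Most barrier genes differed by less than 1.5-fold between the venous cells of the libraries, as did 77% of all measured genes. Of 23 measured transport genes (25 on the list) 0 were higher and 1 was lower, with a median of -0.01; among the cells with 10 or more gate UMIs 3 of 22 were higher and 5 lower (median 0.21). The organic anion transporter Slco1a4 was at 5505 CPM in IL34LacZ/LacZ and 5429 CPM in IL34LacZ/+, the efflux pump Abcb1a at 1889 and 1760 CPM, and the glucose transporter Slc2a1 at 801 and 741 CPM. The exception was Slc16a1 at 294 and 594 CPM (-1.02, -1.34 to -0.70), which was also lower in the other endothelial cells at -0.52. Of 12 measured junction genes (16 on the list) 0 were higher and 2 were lower, Cldn5 and Ctnnb1, where 14% of all genes were lower. Cldn5, the main claudin of the barrier, was at 1632 and 2497 CPM (-0.61, -0.75 to -0.48), against -0.43 in the other endothelial cells; with ribosome-rich cells left out 0 of the 12 passed 1.5-fold. Tjp1 was at 2751 and 2633 CPM and Ocln at 406 and 347 CPM.

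Of 22 measured genes of Wnt signalling (24 on the list), which maintains the barrier, 1 was higher and 0 were lower, with a median of -0.09. The 1 was Fzd4, the Frizzled receptor of norrin, with 66 UMIs in 30 cells of IL34LacZ/LacZ and 43 UMIs in 33 cells of IL34LacZ/+ (176 and 76.9 CPM, log2 ratio 1.20, 0.62 to 1.79). Its ratio in the other endothelial cells was 0.16. The Wnt effector Lef1 was at 2359 and 2298 CPM, and the target gene Apcdd1 at 625 and 653 CPM. Of 18 capillary genes 0 were higher and 3 were lower, Slc16a1, Spock2 and Cxcl12, where 14% of all genes were lower. Their median was -0.17 against -0.25 in the other endothelial cells.

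Interferon-response genes went both ways, and which way more of them went depended on the cells used. Of 21 measured genes (28 on the list) 6 were higher and 3 lower, with a median of 0.24 in venous cells and -0.27 in other endothelial cells. Rsad2, an antiviral enzyme, had 152 and 48.3 CPM (1.66, 0.97 to 2.37) but 23 of its 57 UMIs of IL34LacZ/LacZ in 1 cell. Iigp1, an interferon-gamma GTPase, had 184 and 94.8 CPM (0.96), and Irf1, the transcription factor, 58.8 and 25.04 CPM (1.23, 0.20 to 2.31). The lower ones were Gbp7, Rtp4 and Xaf1. Leaving out the cell with most Vcam1 in each library gave 3 higher and 3 lower, and leaving out ribosome-rich cells gave 11 higher and 0 lower. Thinning to 2000 UMIs gave 5 higher and 5 lower (median 0.018), and no limit on arterial UMIs gave 3 higher and 5 lower of 22 (median -0.18). Of 10 antigen presentation genes 2 were higher, H2-Q4 and Nlrc5, and 1 was lower, H2-T23, while the class I heavy chain H2-K1 was at 454 and 453 CPM.

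Of 17 measured immediate early genes (25 on the list) 0 were higher and 8 lower, with a median of -0.41, and of 23 measured respiratory chain genes (29 on the list) 1 was higher and 12 lower, with a median of -0.64. The medians in the other endothelial cells were -0.33 and -0.45. Klf2 and Klf4, transcription factors induced by blood flow, were at 219 and 399 CPM and at 166 and 326 CPM. A few cells of IL34LacZ/+ carried much of the rest: 1 cell held 70 of the 98 Jun UMIs and 1 cell 37 of the 40 Fos UMIs. Without the cells over 1.5% ribosomal protein UMIs (47 and 61 cells left) 4 of 11 immediate early genes were higher and 2 lower, and 2 of 13 respiratory chain genes were higher and 1 lower, with medians of 0.21 and 0.05. Both medians were thus nearer 0 without the ribosome-rich cells, over the fewer genes that then reached 30 UMIs.

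**Figure D5:**
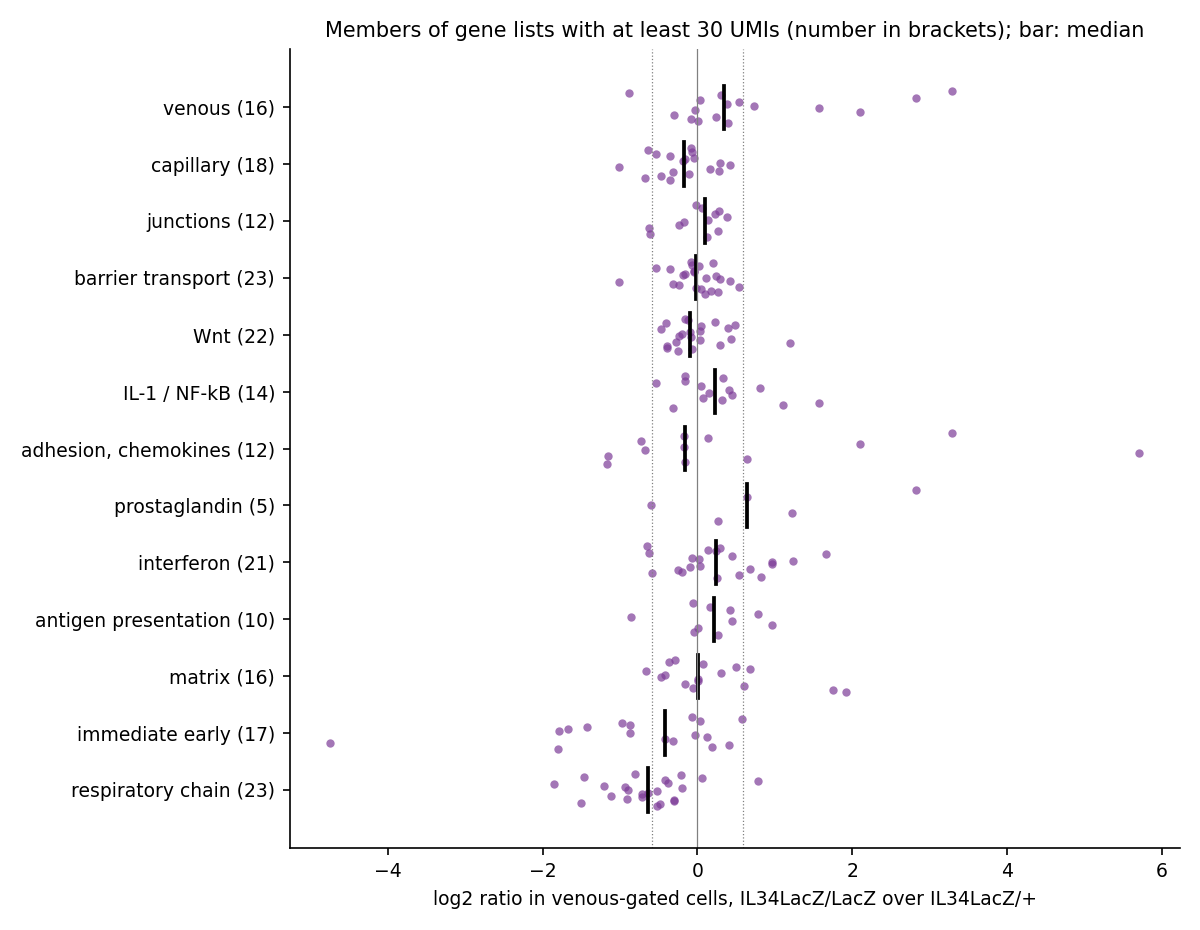
Log2 ratios (x, IL34LacZ/LacZ over IL34LacZ/+) of the measured members of 13 gene lists in venous cells, 1 point per gene, with the median as a black bar and dotted lines at 1.5-fold. The barrier transport (-0.01) and junction (0.10) medians lie near 0, and the respiratory chain median lies at -0.64.

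The 10 genes of highest ratio by the naming rule were Slit2, Vcam1, Ptgs2, Icam1, Adamts1, Nhs, Adamts9, Ppfia2, Rsad2 and Hlcs. Slit2, a repulsive guidance cue for axons and vessels, had 234 UMIs in 4 cells of IL34LacZ/LacZ, 194 of them in 1 cell, and 2 UMIs in IL34LacZ/+, a log2 ratio of 7.45 (5.58 to 10.50). Fibroblasts held it at 629 CPM, fibroblast markers summed to 198 and 129 CPM in venous cells, and in the cell with 194 UMIs they were 0.0252% of its UMIs. Adamts9 and Adamts1, secreted metalloproteases, were at 192 and 57.2 CPM (1.75) and at 115 and 30.4 CPM (1.92). Adamts9 was also higher in the other endothelial cells (0.91), whereas Adamts1 there was at 0.26 (97.4 and 81.5 CPM). The log2 ratio of Adamts1 in venous over other endothelial cells was 0.24 in IL34LacZ/LacZ and -1.42 in IL34LacZ/+. In IL34LacZ/LacZ 1 cell held 21 of its 43 venous UMIs, and after thinning its ratio between libraries was 1.28 (-0.13 to 2.78). Nhs, which regulates the actin cytoskeleton, had 106 UMIs in 16 cells and 46 UMIs in 18 cells (1.78, 1.27 to 2.32), against 0.13 in the other endothelial cells. Ppfia2, a liprin scaffold protein, had 71 and 32 UMIs in 16 and 9 cells (1.73), against -0.85 (-2.32 to 0.44) in the others.

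The 10 lowest were Cdh12, Sugct, Arsb, Btg2, Sfi1, Junb, Psma6, Atp6v0b, Megf6 and Thsd7a. Cdh12, a neuronal cadherin, had 3 UMIs in IL34LacZ/LacZ and 50 UMIs in IL34LacZ/+, 34 of them in 1 cell, and outside the endothelium it was highest in neurons (295 CPM). Psma6, a proteasome subunit, was the most widely detected, in 10 of 51 and 37 of 81 cells, at 34.7 and 106 CPM (-1.60, -2.59 to -0.72). Megf6 was at 34.7 and 104 CPM (-1.58) while the other endothelial cells had 125 and 128 CPM. Junb, a subunit of AP-1, had 45 of its 62 UMIs of IL34LacZ/+ in 1 cell.

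The 2 IL34LacZ/LacZ cells with most Icam1 (36 and 29 UMIs) also held 25 and 11 UMIs of Ptgs2, and the RefSeq promoter windows of both (GRCm38.p6, 250 bases before to 50 after the start) are shown for sequences of the kind that NF-kappaB binds. Of the key genes, 3 of the 4 genes Vcam1, Icam1, Il1r1 and Ptgs2 were found in the table, and Vcam1 was not. The capitals mark GGNNNTTCC on either strand, a short form searched after the full NF-kappaB consensus had matched 0 of the 2 windows (8.46% of all 32851 windows hold that consensus). Of all windows 18.5% hold the short form. The Icam1 window has it at 2 places, 1 of them matched on both strands, and the Ptgs2 window has 0. A match is a description of letters and not a bound site.
Icam1, chr9:21015690-21015989, plus strand: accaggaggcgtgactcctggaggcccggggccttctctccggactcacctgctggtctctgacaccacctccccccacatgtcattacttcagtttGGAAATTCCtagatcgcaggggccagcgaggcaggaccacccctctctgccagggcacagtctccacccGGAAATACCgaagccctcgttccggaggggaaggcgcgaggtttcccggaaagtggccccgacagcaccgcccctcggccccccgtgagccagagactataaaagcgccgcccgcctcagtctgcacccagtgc
Ptgs2, chr1:150099781-150100080, plus strand: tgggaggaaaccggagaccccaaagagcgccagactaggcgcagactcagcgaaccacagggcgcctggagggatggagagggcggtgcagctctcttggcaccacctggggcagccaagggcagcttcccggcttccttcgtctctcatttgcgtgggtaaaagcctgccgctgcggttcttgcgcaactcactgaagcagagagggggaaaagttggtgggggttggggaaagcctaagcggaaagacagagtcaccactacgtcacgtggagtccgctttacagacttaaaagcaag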

How the data were processed

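Single-cell RNA was measured on the 10x Genomics Chromium platform with 3-prime reagents, version 3.1, per the labels' protocols. The authors deposited UMI counts per gene and barcode, in files whose headers name Cell Ranger 7.1.0; the submitters' processing notes give genome build GRCm38.p6 (mm10). No source names the annotation release or a step against free RNA. Counts were used as deposited (36696941 UMIs for IL34LacZ/LacZ and 26679053 for IL34LacZ/+), and intervals and floors (3 counts) cover counting error only.

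Cells were gated by the rule in the text, and raw counts were summed over cells per library and divided by their total (CPM, per 1000000 UMIs). Log2 ratios carry exact conditional binomial intervals, CPM exact Poisson intervals and shares Clopper-Pearson intervals at 95%. Differences of shares and of log2 ratios combine the 2 intervals by the square-and-add method. No count model was fitted, since 1 library per genotype leaves no replicate, and the code was tested on simulated data. Genes needed 30 UMIs over both libraries, and a gene was counted as higher or lower past 1.5-fold. Cells outside the endothelial gate were classed by the marker list with the largest share, at least 0.5%. Cells were thinned to 2000 UMIs where depth mattered.

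Named genes were list members with at least 30 UMIs and the 10 highest and 10 lowest ratios among genes with at least 50 UMIs that kept 1.5-fold without the highest cell of each library. They also include the 15 highest and 10 lowest venous over other ratios, by the library with the smaller ratio. Mitochondrial, ribosomal, haemoglobin, Xist, Tsix and Y-linked genes, unnamed models and gate genes were not ranked, nor were genes whose level in a non-endothelial class was over 10 times higher. Among 3600 genes with at least 50 UMIs, 623 passed 1.5-fold, and 88, 56 and 58 of them were left out by type, by another class and by the 1-cell condition. Some of the genes these rules pick are not reported here. The members and lists were chosen with earlier results of these data known. Tools were Python 3.11.15, numpy 2.4.6, scipy 1.17.1, pandas 2.3.3 and scanpy 1.11.5 for Scrublet. Alternatives varied the gate, the filters, the scaling, the depth and single cells.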

Additional observations from a re-analysis of the deposited data

Results flagged for a closer look

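Cx3cl1, the membrane-bound chemokine fractalkine, stood at 24.0 CPM in venous cells of IL34LacZ/LacZ and 53.7 CPM in those of IL34LacZ/+, and at 64.3 and 34.1 CPM in the other endothelial cells. The libraries thus ordered oppositely in the 2 classes, by -2.07 on the log2 scale, and this difference was not tested. With a gate of at least 2 UMIs the venous ratio was 0.035.

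Vcam1 was also high in cells that the venous rule leaves out because they hold both venous and arterial UMIs. It was at 386 CPM in the 18 such cells of IL34LacZ/LacZ and 182 CPM in the 19 of IL34LacZ/+, and these cells entered no comparison of venous cells except the alternative with no arterial limit.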

How the results depend on the processing

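No paired analysis was possible because each genotype has 1 library. Of 244 recomputed values for the main comparisons, under 25 alternatives, 213 stayed within 1.5 times or within counting error and 31 moved; of 2727 values for single genes 165 moved and 27 changed sign. The cause of these shifts was not tested except where fewer UMIs or cells follow from the setting itself. The alternatives with Adgrg6 left out of the gate and with Scrublet doublets left out kept the same 51 and 81 venous cells. Their venous ratios between libraries could not move, yet they are counted among the values that stayed. The number of genes over 1.5-fold higher in IL34LacZ/LacZ venous cells was 942 after thinning, 1672 with 1 UMI per library as the filter and 111 with 100 UMIs. The number lower was 465 with the gate without Vwf (32 and 30 cells), 1172 after thinning, 2562 and 137 under those filters and 347 with at least 10 gate UMIs (15 and 12 cells). Genes higher in venous than other endothelial cells in both libraries numbered 490 after thinning, 161 without the highest cell of each gene and 604 with at least 10 gate UMIs. Genes lower there numbered 732 with at least 5 gate UMIs, 870 without Vwf, 924 after thinning, 1118 without the highest cell and 1486 with at least 10 gate UMIs.

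The log2 ratio of Vcam1 was 4.01 with the gate without Slc38a5, 2.04 after thinning, 1.76 without the highest cell and 2.42 with no arterial limit. That of Icam1 was 2.78 without Slc38a5 and 1.48 without the cell with most Vcam1. That of Il1r1 was 1.95 without Slc38a5, 1.23 without Vwf, 1.87 after thinning and 1.08 with no arterial limit. The difference from other endothelial cells was 5.46 for Vcam1 at 1% endothelial UMIs and 1.17 after thinning, 4.28 for Icam1 after thinning and 0.83 for Il1r1 by mean CPM per cell. The log2 ratios of these 3 genes stayed above 0 under all settings run, while the Il1r1 difference ranged from -0.35 to 0.83 and the difference in venous share from -0.297 to 4.996 points. For Icam1 no setting left out both IL34LacZ/LacZ cells that held most of it. The settings without the cell with most Vcam1, without the arterial limit, without ribosome-rich cells, with at least 10 gate UMIs and without shared barcodes were chosen after seeing the data.

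Ratios changed sign after thinning for Junb (1.37), Thsd7a (0.96), Mmrn2 (-0.39), Efnb2 (0.11), Cox6c (0.11) and, in venous over other cells, Brd8dc (0.92). They changed sign without ribosome-rich cells for Junb (0.53), Tmsb10 (0.013), Jun (0.73), Ndufa4 (0.051), Uqcrq (0.13) and Cox5a (0.70), and with at least 2 gate UMIs for Cx3cl1 (0.035). With at least 10 gate UMIs the sign changed for H2-T23 (0.069), Gbp7 (0.46), Rtp4 (1.92) and Xaf1 (0.65). Slit3, with 29 of 31 UMIs of IL34LacZ/+ in 1 cell, gave 3.61 with the gate as a share of UMIs, 3.06 at 1% endothelial UMIs, 3.14 without cells at 1% of another class, 1.70 after thinning, 1.47 by mean CPM per cell, 1.12 without the highest cell and 1.502 with at least 10 gate UMIs. Htr2a over other cells gave 0.55 with at least 2 gate UMIs, 0.11 with the share gate and 0.0090 with at least 10. The numbers of cells limit all of this: a gene at 30 UMIs over both libraries can change its side by a few UMIs of 1 cell.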

Other observations

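Matrix genes of the venous cells showed no common direction, and pericyte markers summed to 13.4 CPM in IL34LacZ/LacZ and 114 CPM in IL34LacZ/+. Most of the 64 UMIs behind the IL34LacZ/+ sum lay in 1 cell, where they were 0.872% of 6419 UMIs, and their part in the matrix genes was not tested. Of 16 measured genes 4 were higher in IL34LacZ/LacZ, namely Col4a1, Mmrn2, Adamts9 and Adamts1, and 1 was lower, Lamc1, with a median of 0.01. Col4a1, a chain of the basement membrane collagen, was at 465 CPM in IL34LacZ/LacZ and 306 CPM in IL34LacZ/+ (log2 ratio 0.60, 0.29 to 0.92), while its partner chain Col4a2 was at 321 and 360 CPM (-0.17). The endothelial tyrosine kinase receptors were near even: Kdr, the main VEGF receptor, had 550 and 494 CPM, and Tek, the angiopoietin receptor, 1365 and 1413 CPM.

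Notch4, an endothelial Notch receptor, was at 128 CPM in 25 cells of IL34LacZ/LacZ and 51.9 CPM in 23 cells of IL34LacZ/+ (1.31, 0.61 to 2.02), with 0.44 in the other endothelial cells. Of the 15 measured genes of the arterial list it was the 1 that was over 1.5-fold higher, and Efnb2, the arterial ephrin, at 16.0 and 42.9 CPM, the 1 that was over 1.5-fold lower. Sox18, an endothelial transcription factor, was at 61.4 and 122 CPM (-0.99, -1.74 to -0.28), and Kitl, the ligand of KIT, at 1138 and 971 CPM (0.23).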
